A study of Mus musculus with 8 samples.

Results

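Arginine and polyamine metabolism was followed through 10 genes in the mouse stomach with and without the adrenal glands. The genes were taken by symbol from the deposited expression table and were Arg1, Arg2, Nos2, Ass1, Asl, Oat, Odc1, Azin1, Slc7a1 and Slc7a2. They are 10 of 24481 genes with a usable symbol, and all 10 were among the 16889 genes that passed a filter on low values (a mean of at least 10 on the linear scale over the 8 samples). The genes were selected on these same log2 values of adrenalectomy against sham samples, so the differences of these 10 genes are given as a description and are not tested.

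RNA was sequenced from stomachs of wild-type female mice on the C57BL/6J background, in 2 groups. The adrenalectomy group held 4 samples taken 3 days after surgical removal of the adrenal glands, the source of glucocorticoids, aldosterone and adrenaline. The sham group held 4 samples taken 3 days after surgery without that removal. No age, hormone replacement or pooling is given in the labels, and nothing in the labels ties each sample to its own animal, so each p-value speaks of the spread among these samples, some of which may be technical. Removal of the adrenal glands withdraws mineralocorticoid and adrenal medullary hormones together with glucocorticoids, and these cannot be told apart in this design.

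Arginine stands at a branch point. Nitric oxide synthases turn it into nitric oxide and citrulline, and arginases split it into urea and ornithine. Argininosuccinate synthase and argininosuccinate lyase rebuild arginine from citrulline. Ornithine is either passed by ornithine aminotransferase toward glutamate and proline or decarboxylated to putrescine, from which the polyamines spermidine and spermine are made. Ornithine decarboxylase is destroyed through antizyme proteins, which the antizyme inhibitor binds and holds off. In macrophages the inducible nitric oxide synthase and arginase 1 compete for the same arginine, and in the stomach arginase 2 has been studied as a regulator of macrophage nitric oxide during infection.

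Of the 10 genes, Odc1 has its upstream sequence printed here because it encodes the rate-limiting enzyme of polyamine synthesis, on which the results for the polyamine genes turn. RefSeq promoter windows (build GRCm38.p6) matched 4 of the 10 genes, Ass1, Oat, Odc1 and Slc7a1. The stretch shown is the 171 bases of the Odc1 window that end just before the annotated start of the gene, chr12:17544623-17544793 on the plus strand, written 5′ to 3′ with GC boxes (GGGCGG or CCGCCC) in capitals.
Odc1: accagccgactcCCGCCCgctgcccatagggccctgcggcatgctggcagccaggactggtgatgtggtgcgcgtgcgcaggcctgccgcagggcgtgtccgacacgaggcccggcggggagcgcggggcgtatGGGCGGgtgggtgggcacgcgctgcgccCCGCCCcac
The 3 GC boxes began 159, 37 and 9 bases before the gene start, and 19.6% of 32851 promoter windows held at least 1 GC box in the same length of 171 bases. In every window only the first 171 bases were searched, which need not end at that gene's own start. Both strands were also searched for other motifs. The glucocorticoid receptor half-site AGAACA had no match in these letters and occurred in 11.5% of windows of that length. The E-box CACGTG had none and occurred in 3.41% of windows. The core promoter motif TATAAA had none and occurred in 8.09%. The cyclic AMP response element half-site TGACG had none and occurred in 9.94%. A match or its absence describes these letters and nothing more.

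Markers of liver, of squamous epithelium and of skeletal muscle varied widely between samples, and some of the 10 genes varied with them. How these transcripts came into the samples, and their part in the results, was not tested. Values are the authors' log2 normalized values unless another scale is named, and sequencing depth is unknown. Of 26 liver markers, 25 had a higher mean after adrenalectomy, and their summed level ranged over log2 values of 16.83 to 19.23 in adrenalectomy samples against 16.81 to 17.43 in sham samples. Alb, which encodes serum albumin and is made by hepatocytes, stood at 17.69, 14.28, 12.57 and 9.39 in adrenalectomy replicates 1 to 4, against 8.83, 8.79, 9.06 and 14.16 in sham replicates 1 to 4. All 18 markers of the squamous epithelium of the forestomach had lower means after adrenalectomy, with summed levels of 15.84 to 17.62 in adrenalectomy samples and 16.63 to 18.52 in sham samples. All 15 skeletal muscle markers also had lower means, with sums of 12.12 to 12.19 in adrenalectomy samples and 12.31 to 14.33 in sham samples, the highest in sham replicates 2 and 3. The liver, squamous and skeletal muscle lists had 0 calls in limma, and 0, 1 and 3 of their genes had an unadjusted p under 0.05. Groups did not overlap for 0, 0 and 2 of these genes, against 12.4% of all tested genes. Of the other marker lists, those of intestine (Rbp2) and smooth muscle (Tagln and Myh11) had 1 and 2 genes that fell, and 1 of 12 housekeeping genes, B2m, rose. All 10 smooth muscle markers had lower means after adrenalectomy (median log2 difference -0.18), and 5 had an unadjusted p under 0.05. Lists for pancreas, neutrophils, endothelium, parietal cells, chief cells and mucous cells had 0 calls in limma (3, 2, 5, 2, 3 and 0 genes had an unadjusted p under 0.05). In the same fit, 3245 of all 16889 tested genes had an unadjusted p under 0.05.

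Glucocorticoid-induced genes served as a check of the labels, and 5 of 11 fell. Per1, a clock gene, stood at 10.61 to 10.80 after adrenalectomy and 11.63 to 11.92 after sham surgery (limma adjusted p = 0.00500). Fkbp5, a chaperone of the glucocorticoid receptor, stood at 11.39 to 11.76 after adrenalectomy and 11.98 to 12.85 after sham surgery (limma adjusted p = 0.0431). In whole stomach, fewer cells of a type and less RNA per cell cannot be told apart.

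Arg2 lay lower after adrenalectomy, and Arg1 varied widely within both groups. Arg2 encodes the mitochondrial arginase found outside the liver, and Arg1 encodes the cytosolic arginase of hepatocytes, of alternatively activated macrophages and of differentiated squamous epithelium. Arg2 stood at 6.63, 6.67, 6.65 and 6.80 in the adrenalectomy samples, against 6.91, 7.35, 7.33 and 7.40 in the sham samples. All 4 adrenalectomy values lay below all 4 sham values, and sham replicate 1 lay closest to them. The log2 difference was -0.56 ± 0.10 SE, a ratio of 0.678 on the deposited scale.

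Arg2 was the only member of the list past an adjusted p of 0.05 in the limma fit across all genes, in which 1.71% of tested genes passed, 0.93% on the higher and 0.782% on the lower side. The choice of the genes used this contrast, and nothing is read from that count. The call was lost when any single sample other than sham replicate 1 was left out, while the log2 difference of Arg2 ran from -0.67 to -0.44 over the 21 alternative settings. The difference was -0.54 without adrenalectomy replicate 1 and -0.56 after adjustment for the liver marker score. After adjustment for squamous and skeletal muscle markers it was -0.44. Arg2 was called in 7 of the 21 settings and in none of these fits. In the annotation, 285 of the 1428 exon bases of Arg2 overlap Vti1b on the opposite strand, a far more abundant gene that stood at 12.54 to 12.67 in adrenalectomy samples and 12.55 to 12.59 in sham samples. The strand setting of the counting is not given in the sources used here, so reads of the shared bases cannot be assigned.

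Arg1 was among the most variable genes of the stomach table, with an SD of 0.91 over the 8 samples that exceeded the SD of 98.9% of tested genes. It stood at 11.59, 10.01, 8.71 and 9.28 after adrenalectomy and at 8.94, 10.15, 10.30 and 10.11 after sham surgery. The groups overlapped widely and their means were 9.90 ± 1.25 and 9.87 ± 0.63 (SD, n = 4 each) for adrenalectomy and sham samples. The log2 difference was 0.02 ± 0.60 SE. The single highest value belonged to adrenalectomy replicate 1, the sample with most Alb.

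Arg1 did not follow Alb in every sample. Sham replicates 2 and 3, among the lowest in Alb, had Arg1 values of 10.15 and 10.30, close to the 10.01 of adrenalectomy replicate 2 and the 10.11 of sham replicate 4, in which Alb stood at 14.28 and 14.16. Those sham samples were the highest in squamous markers, with marker means of 13.06 and 13.10. Outside adrenalectomy replicate 1, Arg1 was lowest in adrenalectomy replicate 3, sham replicate 1 and adrenalectomy replicate 4, which also had the lowest squamous marker means of 10.77, 11.47 and 11.70. The 7 samples other than adrenalectomy replicate 1 stood in the same order by Arg1 as by squamous markers, except that sham replicate 4 and adrenalectomy replicate 2 changed places. The log2 difference of Arg1 was -0.68 after adjustment for the liver score, 0.66 with the squamous and skeletal muscle score and -0.01 with both scores together, the last chosen after the data were seen. The direction of Arg1 therefore turned with the tissue score used, and no direction is given for it.

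**Figure D1:**
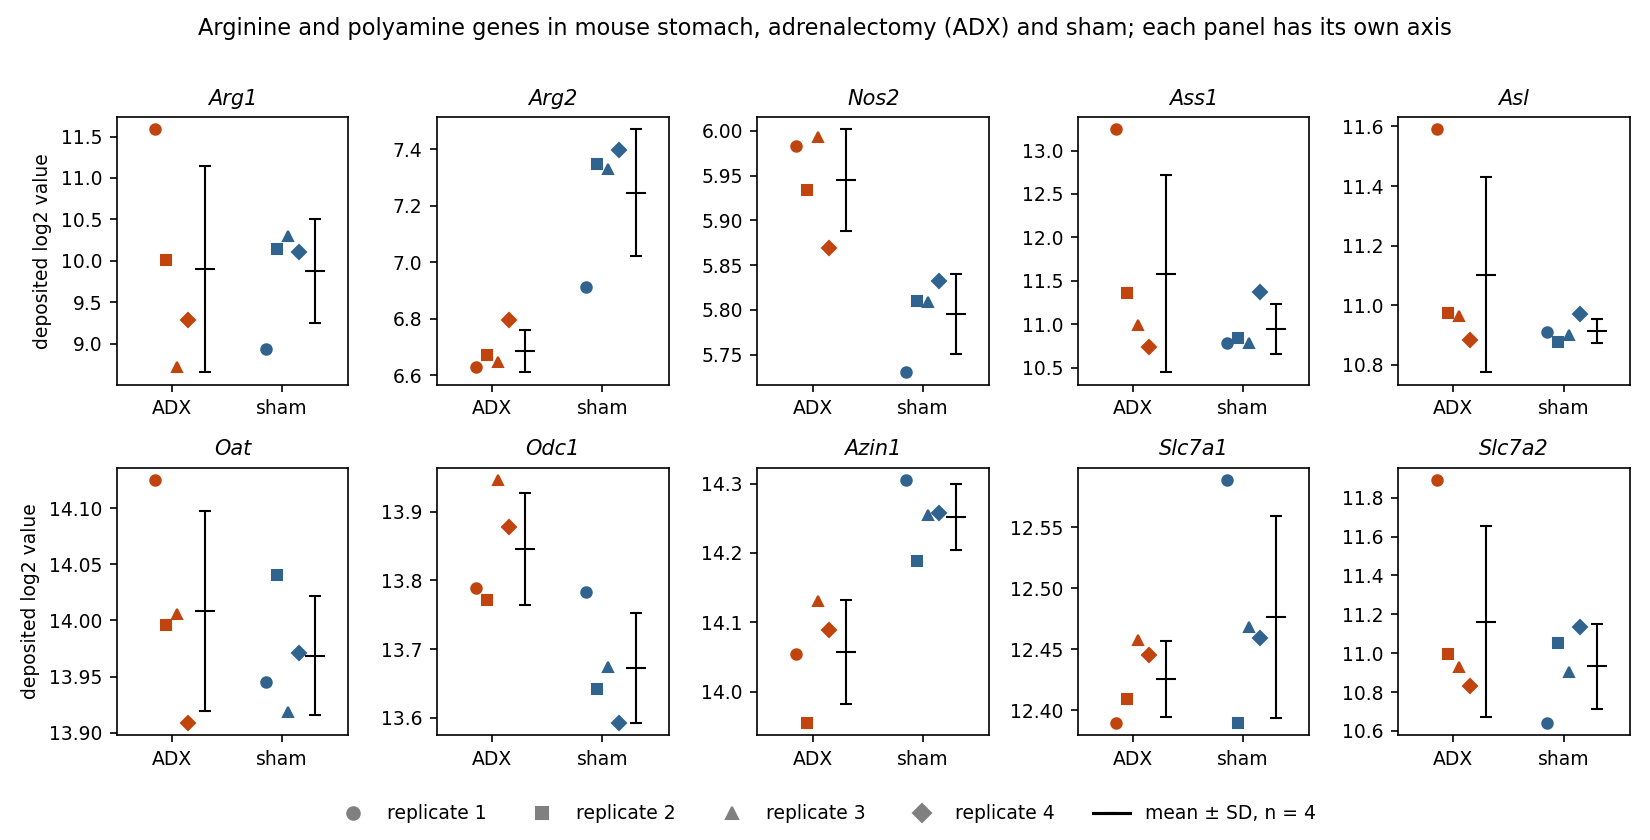
Deposited log2 value of each of the 10 genes (vertical axis, a separate range in each panel) in the 4 adrenalectomy (ADX) and 4 sham samples; marker shape gives the replicate number, and the black bar is the mean ± SD (n = 4). Arg2, Nos2 and Azin1 show groups that do not overlap, and adrenalectomy replicate 1 stands alone at the top for Arg1, Ass1, Asl and Slc7a2.

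Nos2, the inducible nitric oxide synthase that macrophages and epithelia make on inflammatory stimulation, was the lowest of the 10 genes and lay higher after adrenalectomy. It stood at 5.98, 5.93, 5.99 and 5.87 in adrenalectomy samples, against 5.73, 5.81, 5.81 and 5.83 in sham samples. The groups did not overlap, with a gap of 0.04 between adrenalectomy replicate 4 and sham replicate 4. The log2 difference was 0.15 ± 0.04 SE, a ratio of 1.11 on the deposited scale. The difference ran from 0.12 to 0.18 over the 20 alternatives in which Nos2 was tested, always higher after adrenalectomy. It was lowest, at 0.12, after adjustment for the liver score. Without the 3 samples richest in Alb, a setting chosen after the data were seen, it was 0.15.

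The neuronal and endothelial synthases did not pass the test. Nos1, which in the gut belongs to enteric neurons, stood at 9.84 to 9.995 after adrenalectomy and 9.91 to 10.20 after sham surgery, and Nos3, of endothelium, stood at 9.01 to 9.18 after adrenalectomy and 8.81 to 9.10 after sham surgery. Their log2 differences were -0.16 (limma adjusted p = 0.256) and 0.10 (limma adjusted p = 0.496), and both genes were named after their values were seen. Of 20 tested genes of nitric oxide synthesis, cofactor supply and signalling, 1 rose and none fell, with a median log2 difference of 0.08 against -0.00088 for all tested genes. The gene that rose was Prmt1, the main enzyme that methylates protein arginines to asymmetric dimethylarginine, from whose breakdown an inhibitor of nitric oxide synthases is released. Prmt1 stood at 11.51 to 11.60 after adrenalectomy and 11.36 to 11.40 after sham surgery, a log2 difference of 0.17 ± 0.03 SE (limma adjusted p = 0.0325).

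Genes that are induced together with Nos2 gave no called change. Of 14 tested inducers and companions, 0 passed in the limma fit, with a median log2 difference of 0.08. An unadjusted p under 0.05 in that fit was found for 6 of the 14 and for 3245 of all 16889 tested genes. The smallest p-value was that of Irf1, a transcription factor that carries the interferon signal to the Nos2 promoter. Irf1 stood at 11.36 to 11.57 after adrenalectomy and 10.92 to 11.25 after sham surgery (log2 difference 0.36 ± 0.08 SE, limma adjusted p = 0.0611). The groups did not overlap.

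Macrophage markers also differed between the groups. Of 16 markers of macrophages and monocytes, 5 rose in the limma fit and none fell, where 0.93% of all tested genes rose, and their summed level was 14.01 to 14.21 after adrenalectomy and 13.76 to 13.82 after sham surgery. After adjustment for squamous and skeletal muscle markers no gene of the table was called in limma, these 5 included, with 2283 genes at an unadjusted p under 0.05. The part of macrophage number in the levels of Nos2, Arg1 and Arg2 was not tested. Of 16 tested companions of Arg1 in alternatively activated macrophages, 1 rose and none fell, with a median log2 difference of 0.03. Retnla, a secreted resistin-like protein of such cells, stood at 8.24 to 8.29 after adrenalectomy and 7.90 to 8.05 after sham surgery (0.31 ± 0.04 SE, limma adjusted p = 0.0224). The largest difference in that list, named after its value was seen, was that of Chil4, a chitinase-like gene also made by gastric epithelium. Chil4 stood at 13.97, 14.996, 11.82 and 13.78 in adrenalectomy samples and 10.48, 11.22, 11.01 and 11.34 in sham samples. Its log2 difference was 2.63 ± 0.59 SE (limma adjusted p = 0.0702), and since Chil4 and Chil3 are near-identical copies, how their reads were divided is uncertain.

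Ass1 and Asl, which rebuild arginine from citrulline and serve the urea cycle in liver, followed albumin. Ass1 stood at 13.24, 11.36, 10.99 and 10.74 after adrenalectomy and at 10.79, 10.84, 10.79 and 11.37 after sham surgery. The high values were those of adrenalectomy replicate 1, adrenalectomy replicate 2 and sham replicate 4, the 3 samples with most Alb. The log2 difference of 0.64 ± 0.50 SE became 0.08 without adrenalectomy replicate 1 and -0.07 after adjustment for the liver score. Adrenalectomy replicate 4 and sham replicates 1 to 3, in which Alb was lowest, had Ass1 values of 10.74 and 10.79 to 10.84.

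Asl showed the same picture over a smaller range. It stood at 11.59, 10.97, 10.96 and 10.88 after adrenalectomy and at 10.91, 10.88, 10.90 and 10.97 after sham surgery. Only adrenalectomy replicate 1 lay outside 10.88 to 10.97. The log2 difference of 0.19 ± 0.14 SE became 0.03 when that sample was left out and 0.0027 after adjustment for the liver score. In both genes the groups overlapped.

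**Figure D2:**
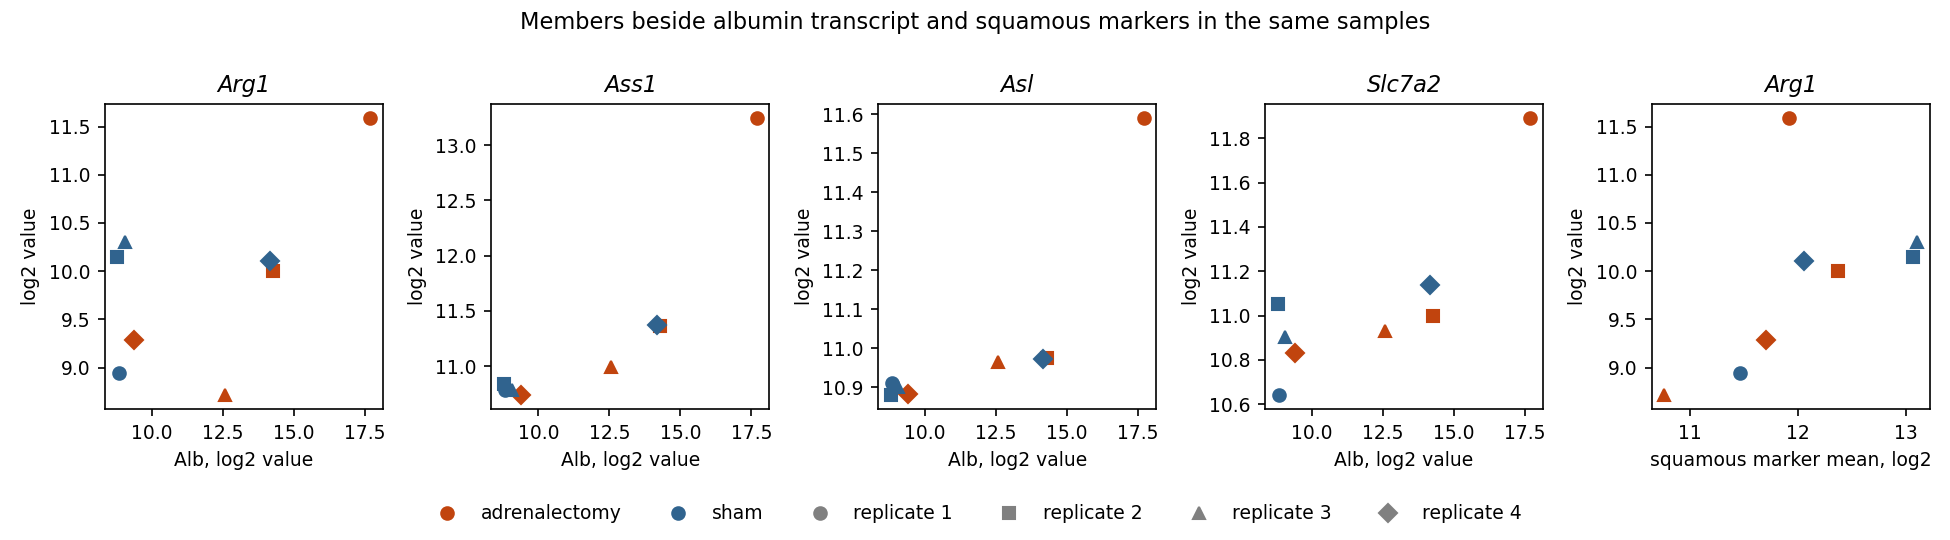
Log2 value of Arg1, Ass1, Asl and Slc7a2 (vertical axes) against the log2 value of Alb in the same sample, and of Arg1 against the mean log2 value of 18 squamous markers (right panel); each point is a sample, colour gives the group and shape the replicate number. Ass1 and Asl climb with Alb, while Arg1 is also high, at 10.15 and 10.30, in the 2 sham samples with low Alb and most squamous RNA.

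In the list of the urea cycle and of the routes from ornithine to glutamate, proline and creatine, Cps1 and Otc were highest in the same 3 samples. Cps1, which feeds ammonia into the urea cycle in hepatocytes, stood at 13.17, 9.97, 8.17 and 7.02 after adrenalectomy and at 6.88, 6.90, 6.94 and 10.02 after sham surgery, the same order of samples as the high values of Ass1. Otc, the next enzyme of the cycle, stood at 8.84, 6.85, 6.30 and 5.97 after adrenalectomy and at 5.96, 5.96, 5.96 and 6.75 after sham surgery. Cps1 and Otc were named after their values were seen. Of 20 tested genes in the list, none rose and 1 fell, with a median log2 difference of 0.09. The gene that fell was Glul, which makes glutamine from glutamate and is known to be induced by glucocorticoids in muscle and other tissues. Glul stood at 16.13 to 16.22 after adrenalectomy and 16.31 to 16.43 after sham surgery, a log2 difference of -0.21 ± 0.04 SE (limma adjusted p = 0.0467). Glul was called in 5 of 21 alternative settings, and the call was lost when any single sample other than sham replicate 1 was left out.

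Oat, the mitochondrial aminotransferase that carries ornithine to glutamate and proline, was the most abundant of the 10 genes per length and differed little. It stood at 14.12, 13.996, 14.01 and 13.91 after adrenalectomy, against 13.94, 14.04, 13.92 and 13.97 after sham surgery. The groups overlapped over most of their range. The log2 difference was 0.04 ± 0.05 SE, and it was 0.0012 without adrenalectomy replicate 1.

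The polyamine genes Odc1 and Azin1 differed in opposite directions. Odc1 encodes ornithine decarboxylase, and Azin1 encodes the antizyme inhibitor, a relative of the enzyme that has lost its activity. Odc1 stood at 13.79, 13.77, 13.95 and 13.88 after adrenalectomy and at 13.78, 13.64, 13.67 and 13.59 after sham surgery. The groups overlapped only through sham replicate 1, which lay 0.01 above the lowest adrenalectomy sample. The log2 difference was 0.17 ± 0.05 SE, a ratio of 1.13. Azin1 stood at 14.05, 13.95, 14.13 and 14.09 after adrenalectomy and at 14.31, 14.19, 14.25 and 14.26 after sham surgery. The groups did not overlap, with a gap of 0.06, and the log2 difference was -0.19 ± 0.04 SE, a ratio of 0.874.

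Within each sample, the distance between these genes also separated the groups. The log2 value of Odc1 minus that of Azin1 was -0.27, -0.18, -0.18 and -0.21 in adrenalectomy samples, against -0.52, -0.55, -0.58 and -0.66 in sham samples. The gap between the groups was 0.26, and the SD was 0.04 in adrenalectomy samples and 0.06 in sham samples (n = 4 each). This distance was computed after the values of both genes were known and carries no test. Both genes differed between the groups in opposite directions, so the separation follows from their single differences and adds no support to them. It was 1 of 7 such pairs computed. Nos2 minus Arg2 and Srm minus Sat1 also separated the groups, with gaps of 0.25 and 0.22, and the groups overlapped in the other 4 pairs. Each separating pair set a gene with a higher mean after adrenalectomy against a gene with a lower mean. How often other pairs of genes separate the groups was not computed. The difference of Odc1 ran from 0.12 to 0.22 and that of Azin1 from -0.25 to -0.14 over the 21 alternative settings, with the sign unchanged in all of them. After adjustment for the liver score the difference was 0.22 for Odc1 and -0.18 for Azin1. After adjustment for squamous and skeletal muscle markers it was 0.12 for Odc1 and -0.25 for Azin1. A stretch of 358 of the 6256 exon bases of Azin1 overlaps an antisense transcript that the deposited table does not list. The same holds for 635 of the 9135 exon bases of Slc7a2 and 116 of the 1428 exon bases of Arg2.

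**Figure D3:**
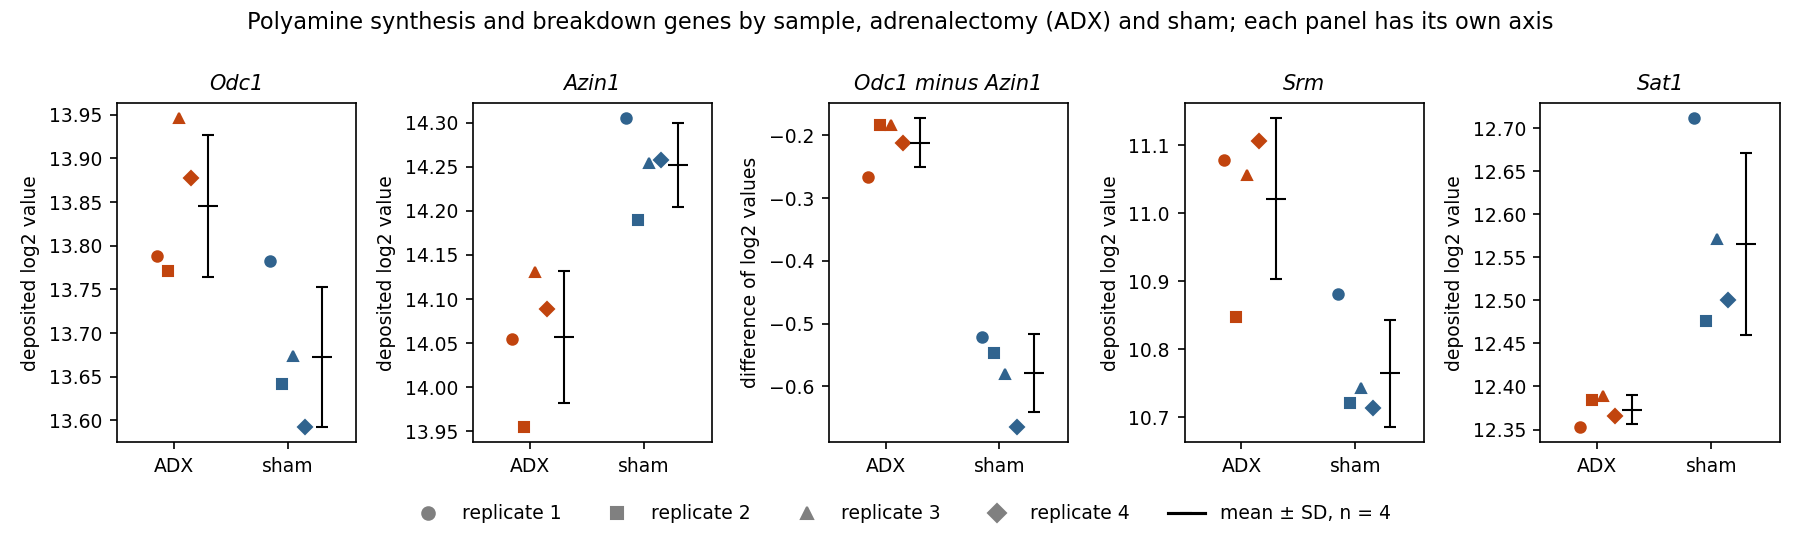
Deposited log2 values of Odc1, Azin1, Srm and Sat1 and the within-sample difference Odc1 minus Azin1 (middle panel) in 4 adrenalectomy (ADX) and 4 sham samples; shape gives the replicate number and the bar is the mean ± SD (n = 4). The within-sample difference lies between -0.27 and -0.18 after adrenalectomy and between -0.66 and -0.52 after sham surgery.

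Around these, the wider polyamine list gave 1 called gene. Of 22 genes listed, 20 were tested, 1 rose and none fell, with a median log2 difference of 0.03. Enoph1, an enzyme of the methionine salvage route that recycles the by-product of spermidine and spermine synthesis, stood at 10.47 to 10.54 after adrenalectomy and 10.31 to 10.33 after sham surgery (0.17 ± 0.03 SE, limma adjusted p = 0.0361). The next smallest p-values belonged to Srm and Sat1, both named after their values were seen. Srm, which makes spermidine from putrescine, stood at 11.08, 10.85, 11.06 and 11.11 after adrenalectomy and 10.88, 10.72, 10.74 and 10.71 after sham surgery, with a log2 difference of 0.26 ± 0.06 SE (limma adjusted p = 0.0884). The groups overlapped through adrenalectomy replicate 2 and sham replicate 1. Sat1, which acetylates spermidine and spermine for breakdown and export, stood at 12.35, 12.38, 12.39 and 12.37 after adrenalectomy and 12.71, 12.48, 12.57 and 12.50 after sham surgery. Its groups did not overlap, and the log2 difference was -0.19 ± 0.05 SE (limma adjusted p = 0.0905). Smox, the spermine oxidase, stood at 10.47 to 10.53 after adrenalectomy and 10.55 to 10.74 after sham surgery, and was also named after its values were seen (-0.13 ± 0.04 SE, limma adjusted p = 0.167).

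The antizymes themselves gave little to compare. Oaz2 stood at 12.13 to 12.22 after adrenalectomy and 12.10 to 12.28 after sham surgery. Oaz1 stood at 4.52 to 4.53 after adrenalectomy and 4.47 to 4.54 after sham surgery. The counting intervals are not given, so whether these low values reflect the level of the Oaz1 transcript cannot be told. The 1346 tested genes with mean log2 values from 3 to 5 had a median SD of 0.030. Amd1, which makes the aminopropyl donor for spermidine and spermine, was below the filter at -1.72 in every sample, and its near-identical copy Amd2 was listed at 0 throughout, so no comparison was made for this step. Oaz1, Oaz2, Amd1 and Amd2 were named after their values were seen.

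Among 12 growth genes that are linked to polyamine synthesis, 1 rose and none fell, with a median log2 difference of 0.05. Mycn, a relative of the Myc factor that activates Odc1, stood at 7.56 to 7.72 after adrenalectomy and 7.37 to 7.44 after sham surgery (0.25 ± 0.05 SE, limma adjusted p = 0.0398). Mycn was called in 6 of 21 alternative settings, and the call was lost after median centring, after adjustment for the liver score and without any single sample other than adrenalectomy replicate 1 or sham replicate 1. Myc itself stood at 10.92 to 11.14 after adrenalectomy and 10.91 to 11.25 after sham surgery, with a log2 difference of -0.03 (limma adjusted p = 0.858), and was named after its values were seen.

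The cationic amino acid transporters bring arginine, lysine and ornithine into cells. Slc7a1, the widely expressed carrier, stood at 12.39, 12.41, 12.46 and 12.45 after adrenalectomy and at 12.59, 12.39, 12.47 and 12.46 after sham surgery. The groups overlapped, sham replicate 1 alone lay above 12.47, and the log2 difference was -0.05 ± 0.04 SE. Slc7a2, the carrier of liver and of activated macrophages, stood at 11.89, 10.998, 10.93 and 10.83 after adrenalectomy and at 10.64, 11.05, 10.90 and 11.14 after sham surgery. The highest value was again that of adrenalectomy replicate 1, and the groups overlapped. The log2 difference of 0.23 ± 0.23 SE became -0.01 when that sample was left out and -0.07 after adjustment for the liver score.

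Of 16 tested genes of cationic amino acid and polyamine transport, 0 passed in the limma fit, with 4 at an unadjusted p under 0.05 and a median log2 difference of 0.02. Over all 16889 tested genes, 3245 had an unadjusted p under 0.05 in that fit. The smallest p-values were those of Atp13a3, a pump that carries polyamines into cells, and Slc38a9, the lysosomal sensor of arginine. Atp13a3 stood at 13.59 to 13.67 after adrenalectomy and 13.70 to 13.79 after sham surgery (-0.13 ± 0.03 SE, limma adjusted p = 0.0610). Slc38a9 stood at 10.89 to 11.02 after adrenalectomy and 11.03 to 11.24 after sham surgery (-0.18 ± 0.05 SE, limma adjusted p = 0.111).

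**Figure D4:**
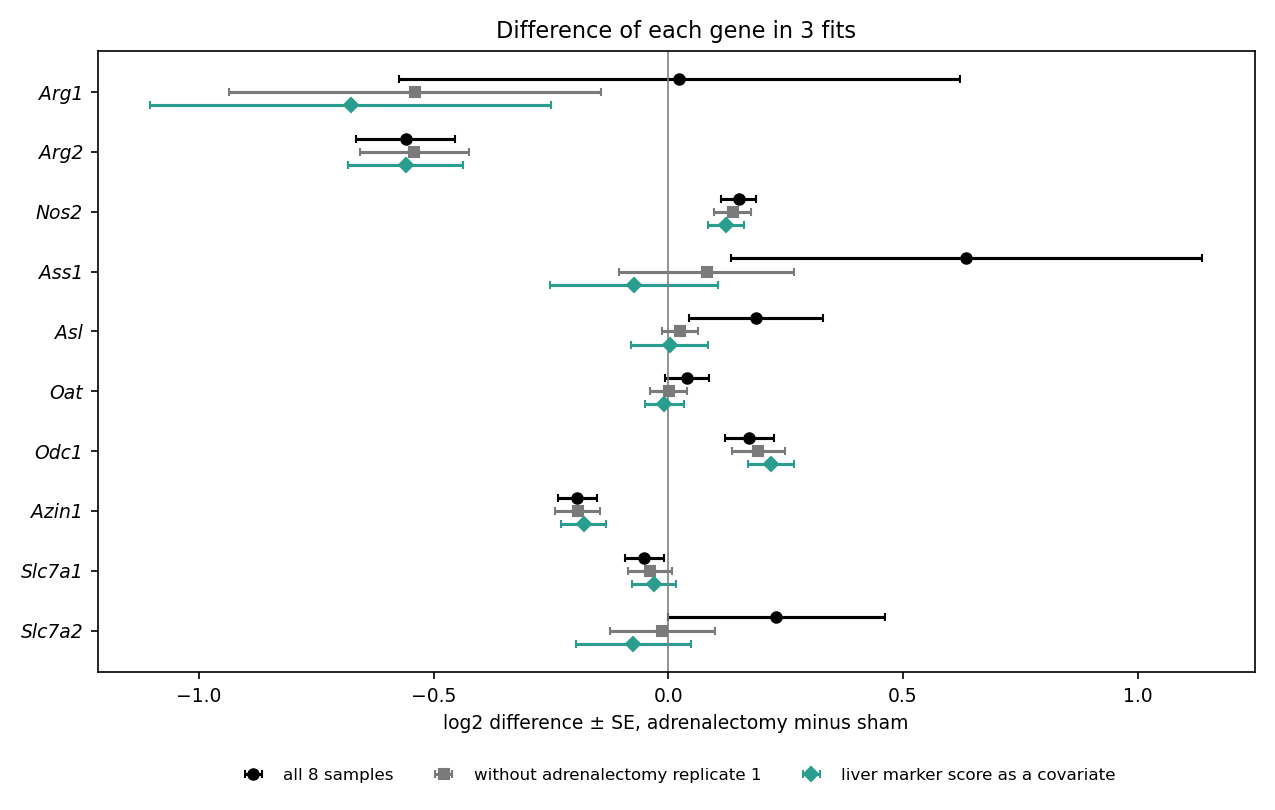
Log2 difference, adrenalectomy minus sham, with its standard error (horizontal axis) for each of the 10 genes in the fit of all 8 samples, in the fit without adrenalectomy replicate 1 and after adjustment for the liver marker score. Arg2, Nos2, Odc1 and Azin1 keep nearly the same place in the 3 fits, and Arg1, Ass1, Asl and Slc7a2 take lower values in the fits that leave out the liver-rich sample or adjust for liver markers.

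Set side by side, the 10 genes differed in their spread between samples, ranked here against tested genes of all levels. The SD over the 8 samples exceeded that of 98.9% of tested genes for Arg1, 98.7% for Ass1, 96.1% for Slc7a2, 95.6% for Arg2 and 93.4% for Asl. This SD includes the difference between the groups. For Arg2 it was 0.34, against an SD of 0.08 within adrenalectomy samples and 0.22 within sham samples. For Odc1, Azin1 and Nos2 the share was 81.1%, 81.0% and 70.7%, and for Oat and Slc7a1 54.6% and 47.7%. The median log2 difference of the 10 genes was 0.09, and -0.0058 without adrenalectomy replicate 1. Groups did not overlap for 3 of them, Nos2 on the higher side and Arg2 and Azin1 on the lower, where 12.4% of all tested genes had groups that did not overlap (6.3% higher and 6.13% lower after adrenalectomy).

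Compared per length, as the log2 value minus the log2 of the exon length in kilobases, the genes stood in the order Oat (12.75 over all 8 samples), Odc1 (11.99), Azin1 (11.51), Ass1 (9.99), Slc7a1 (8.92), Asl (8.74), Arg1 (8.73), Slc7a2 (7.86), Arg2 (6.45) and Nos2 (3.73). Oat, Odc1 and Azin1 kept this order in every sample. The neighbours Slc7a1 and Asl, Asl and Arg1, and Arg1 and Slc7a2 differed by 0.19, 0.0066 and 0.87 log2 units per length, less than the larger SD of the pair over the samples (0.24, 0.91 and 0.91). With the longest transcript as the length, Slc7a1 and Asl changed places. The mitochondrial arginase Arg2 was thus below Arg1 per length, and the inducible synthase Nos2 below both.

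The genes whose values ran most like each of the 10 over the 8 samples were found by Pearson's r, as a description over few points and 16889 tested genes, among which high values arise readily. Like the SD over the 8 samples, r includes the difference between the groups. For Ass1 they were Serpind1, Cfhr2 and Rdh16f2 (r = 0.999 for each). For Asl they were Hao1, Sucnr1 and Qprt (r = 0.998, 0.997 and 0.997), and for Slc7a2 Selenbp1, Rtp3 and Cpb2 (r = 0.994, 0.979 and 0.979). Arg1 ran most like Cyp2f2, Ctsl and Car8 (r = 0.976, 0.976 and 0.965). Arg2 ran most like Galnt15, Hif3a and Rgcc (r = 0.992, 0.992 and 0.990), and Nos2 like Heyl, F2rl3 and Dus2 (r = 0.969, 0.962 and 0.956). Odc1 ran most like Fhl2, Shisa5 and Rrp7a (r = 0.991, 0.986 and 0.985), and Azin1 like Cdc25a, Myef2 and Lrba (r = 0.989, 0.984 and 0.983). The closest to Oat were Tm4sf4, Asb13 and Klhdc3 (r = 0.948, 0.939 and 0.934), and to Slc7a1 Cmas, Galnt7 and Chmp5 (r = 0.988, 0.987 and 0.981).

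**Figure D5:**
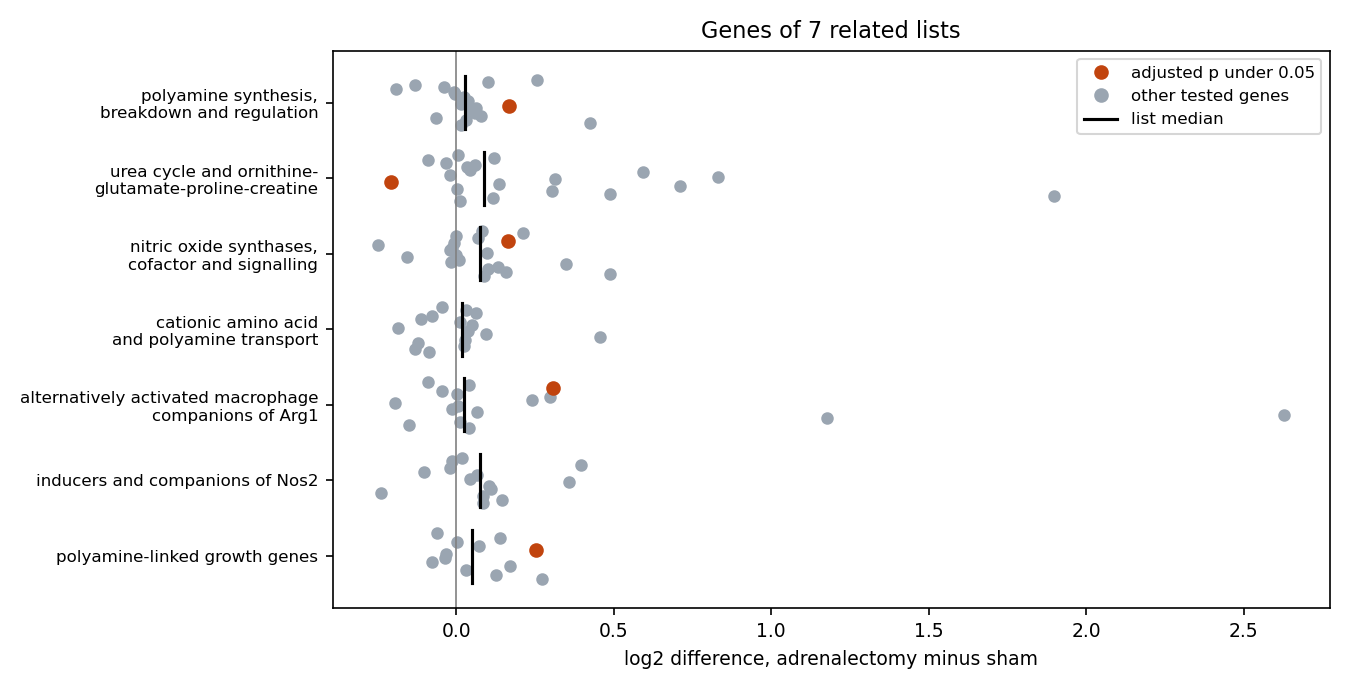
Log2 difference, adrenalectomy minus sham (horizontal axis), of each tested gene in 7 lists around the 10 genes; orange points passed an adjusted p of 0.05 in limma, grey points did not, and the black line is the list's median. The medians lie between 0.02 and 0.09, and the far points are Chil4 at 2.63, Cps1 at 1.90 and Chil3 at 1.18.

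Over the 7 lists, which hold none of the 10 genes, 118 genes were tested, 4 rose and 1 fell in limma, 4.24% against the 1.71% of all tested genes. The 5 genes were Enoph1, Prmt1, Retnla, Mycn and Glul, called in 6, 7, 9, 6 and 5 of 21 alternative settings. Their log2 differences kept their sign in each of the 21. After adjustment for squamous and skeletal muscle markers, where 0 of 16889 genes were called in limma and 2283 had an unadjusted p under 0.05, the log2 differences were 0.16 for Enoph1, 0.15 for Prmt1, 0.34 for Retnla, 0.27 for Mycn and -0.15 for Glul. All 5 calls were also lost after adjustment for the liver score, without adrenalectomy replicate 2, 3 or 4 and without sham replicate 2 or 4.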

How the data were processed

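RNA-seq of 8 mouse stomach samples was analysed from the authors' deposited table of log2 normalized values, one row per gene. Per the submitters' processing notes, Trim Galore, STAR, featureCounts and DESeq2 were used with genome build mm9, and the sources used here give neither their versions nor the strand setting. The transformation behind the deposited log2 values is not named. Read counts were not used here, so depth, counting intervals and count-based tests are not given. Another 8 columns, which carry names of other samples, were not used here, and 26 rows with date-like names were left out.

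Of 24481 genes, 16889 with a mean of at least 10 on the linear scale were tested and 7592 were left out. Adrenalectomy minus sham was fitted for all tested genes with limma (version 3.58.1, run in R version 4.3.3), using an intensity trend and Benjamini-Hochberg adjustment, and genes at or under an adjusted p of 0.05 were called. The scripts were tested on simulated data. The 10 genes, 7 pathway lists and 14 marker lists were chosen with earlier results of these data known. All 10 genes are named, with every called gene of a pathway list or, where none was called, the 2 with the smallest p, and the 3 genes closest by Pearson's r. A gene that this rule would name is not reported here. Alb, Per1 and Fkbp5 are named as checks. Other genes are marked where they appear as named after their values were seen. Exon lengths came from GENCODE M21 (build GRCm38) and promoter windows from RefSeq. The labels give no batch. Alternatives changed the filter, the moderation, sample weights, scaling, tissue covariates, a replicate block and the samples left out.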

Additional observations from a re-analysis of the deposited data

Results flagged for a closer look

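Of 20 groups of 4 values (10 genes in 2 groups), 5 held a sample far from the others by Dixon's ratio of gap to range. The threshold would flag about 1 in 20 independent groups. These groups share the same 8 samples and are not independent, so the count is not read against that rate. Sham replicate 1 was lowest for Arg1, at 8.94 against 10.11 to 10.30 in the other sham samples, and for Arg2, at 6.91 against 7.33 to 7.40. Sham replicate 4 was highest for Ass1, at 11.37 against 10.79 to 10.84. Adrenalectomy replicate 1 was highest for Asl, at 11.59 against 10.88 to 10.97, and for Slc7a2, at 11.89 against 10.83 to 10.998. Alb stood at 17.69 in adrenalectomy replicate 1 and 14.16 in sham replicate 4.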

How the results depend on the processing

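In the limma fit of all 8 samples, 289 genes (54.3% of them higher after adrenalectomy), 1 of the 10 genes and 5 pathway genes were called, and the median log2 difference of the 10 genes was 0.09. No filter on low values gave 170, 0 and 3. Sample quality weights gave 624 genes and 8 pathway genes, and median centring 156 genes (44.2% higher) and 1 pathway gene. Quantile normalization called 2 of the 10 genes, Arg2 and Azin1, and 3 pathway genes. The liver score as a covariate gave 127, 0 and 1, with a median of -0.053. The squamous and skeletal muscle score gave 0, 0 and 0 calls in limma, with 2283 genes at an unadjusted p under 0.05. Leaving out one sample gave 27 (without sham replicate 3) to 633 genes (without sham replicate 1), 0 to 1 of the 10 genes, 0 to 8 pathway genes and medians of -0.0058 (without adrenalectomy replicate 1) to 0.17.

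Settings chosen after the data were seen each gave 0, 0 and 0 calls in limma. Without the 3 samples richest in Alb, 2338 genes had an unadjusted p under 0.05 and the median was 0.0026. Without the most liver-rich and the 2 muscle-rich samples these were 1822 and -0.026, and with both scores as covariates 2264 and 0.0041. The cause of the lost calls was not tested. With the longest transcript as length, 2 of the 10 genes changed place in the level order.

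With the replicate number as a block, 4 genes, 0 of the 10 and 0 pathway genes were called in limma, with 2803 genes at an unadjusted p under 0.05. Deviations of same-numbered samples from their group means correlated at -0.29, 0.45, -0.12 and -0.63, and the samples of number 2 alone correlated best with each other. Tissue markers also varied between samples, so these correlations cannot show whether same-numbered samples were handled together.

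Signs turned for Arg1 in 8 of 21 alternatives, Ass1 in 3, Oat and Slc7a2 in 2 each and Asl in 1.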
